A study of Mus musculus with 53 samples.

Results

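Lysosome genes were examined in the brain of SCA3 mice and wild-type mice. They comprised 44 genes, picked by symbol from a list of membrane proteins, hydrolases, proton pump subunits and sorting receptors of the lysosome. Each of the 44 symbols was found among the 12372 genes of the count table. The RNA sequencing data covered brainstem, cerebellum, cortex and striatum, as 53 libraries of 14 male mice. The 8 wild-type and 6 SCA3 animals were 74 to 77 weeks old. Brainstem had 8 wild-type and 6 SCA3 libraries, cerebellum and cortex 7 and 6 each, and striatum 8 and 5. SCA3 mice were MJD84.2 transgenics, hemizygous for the full human ATXN3 gene, which has a lengthened CAG repeat and its own promoter, and they kept mouse Atxn3. Wild-type mice were C57BL/6 animals without the transgene, bred at the same center. No mouse was treated, all went through beamwalk and rotarod tests earlier in life, and no ataxic phenotype was seen in the SCA3 group at that stage. The transgene is expressed everywhere rather than in a chosen cell type. SCA3 mice weighed 28.16 to 34.74 g and wild-type mice 37.21 to 53.61 g. Most mice gave a library from each region, so libraries of different regions share animals.

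Lysosomes are acidic vesicles that degrade proteins, glycans and lipids delivered by endocytosis and autophagy. A proton pump, the V-ATPase, acidifies them, heavily glycosylated proteins such as LAMP1 and LAMP2 line their membrane, and mannose 6-phosphate receptors and sortilin carry newly made hydrolases to them. Many lysosome genes share a promoter motif, the CLEAR element, which is bound by the transcription factor TFEB. Loss of a single hydrolase causes a storage disease, often with damage to the brain, and neurons and glia both depend on lysosomal breakdown of aggregated proteins.

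Levels are given in CPM, read counts scaled to a common library total after TMM scaling, which corrects the totals for differences in composition. CPM values of different genes are not comparable unless divided by transcript length. A gene was called changed when its false discovery rate (FDR, the Benjamini-Hochberg adjusted p of edgeR's likelihood ratio test over all 12372 genes) was below 0.05. Library totals lay between 31.7 M and 76.7 M counts with a median of 57.7 M, and the lysosome genes together took 0.766% to 1.06% of them. The smallest count of a lysosome gene in any library was 251, for Naglu. Reads were counted on mouse genes, so the human transgene itself gives no check of the genotype labels here. Mouse Atxn3 was 46.2 ± 4.24 CPM (SD, n = 8) in wild-type and 58.0 ± 4.04 CPM (n = 5) in SCA3 striatum (log2 fold change 0.33, FDR 0.00012), and its log2 fold change was 0.01 to 0.14 in the other regions, where it was not called. In bulk tissue, fewer cells of a type and less RNA per cell cannot be told apart. Striatal libraries differed in thalamus markers, whose summed level was 3515 and 2315 CPM in wild-type mice 7267059 and 7267058, against 369 to 953 CPM in the other 6 wild-type and 357 to 730 CPM in the 5 SCA3 libraries. The calls, counts and regional contrasts that use striatum were also computed without those libraries, and the main counts and calls are given both ways. Mouse Atxn3 in striatum was then at 0.32 (edgeR FDR 0.0012).

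Promoters are shown here because they are what many lysosome genes have in common beyond function. RefSeq promoters (GRCm38.p6, 250 bases before to 50 after each listed start) were at hand for 37 of the 44 genes, and M6pr, Laptm4b, Atp6v1h, Ctsb, Atp6v1b2, Asah1 and Sort1 had no entry. The core of the CLEAR motif, TCACGTGA, reads the same on both strands. It was present at 1 or more starts of 8 of the 37 genes (21.6%), and in 209 of 9474 genes of the count table with a promoter (2.21%). These 8 genes were Atp6v0d1, Atp6v1a, Cln3, Ctsa, Ctsd, Gla, Igf2r and Mcoln1. The plain E-box CACGTG, which lies inside every core, was present in 15 of the 37 (40.5%) and in 1125 of the 9474 (11.9%). A match is a match of letters and does not show that a factor binds there. In the following stretches, all upstream of the annotated start, capitals mark the core.
Ctsd (cathepsin D, an aspartic protease; chr7:142387903-142387942, minus strand, core at -99 to -92 from the start): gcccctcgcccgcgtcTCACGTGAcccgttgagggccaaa
Mcoln1 (mucolipin 1, a lysosomal calcium channel; chr8:3500457-3500496, plus strand, core at -46 to -39): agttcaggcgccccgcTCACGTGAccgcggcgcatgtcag
Igf2r (the large mannose 6-phosphate receptor; chr17:12769732-12769771, minus strand, core at -49 to -42): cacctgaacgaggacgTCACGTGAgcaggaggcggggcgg
Gla (alpha-galactosidase A; chrX:134601210-134601249, minus strand, core at -228 to -221): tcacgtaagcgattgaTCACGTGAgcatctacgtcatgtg
The 100 bases before the start of Arsb, the gene on which the SCA3 comparison turns, held neither motif, and nor did the rest of its 300-base window. They are shown for comparison.
Arsb (arylsulfatase B; chr13:93771579-93771678, plus strand): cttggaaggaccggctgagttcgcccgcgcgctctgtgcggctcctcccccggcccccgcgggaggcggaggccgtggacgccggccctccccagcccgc

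To describe where in the brain these genes are expressed, levels in wild-type mice were compared between regions. Brainstem had the highest mean CPM for 26 of the 44 genes, cortex for 9, cerebellum for 5 and striatum for 4. The lowest mean was in cerebellum for 17 genes, in striatum for 15, in cortex for 10 and in brainstem for 2. The differences were modest: the ratio of the highest to the lowest regional mean had a median of 1.41 and ranged from 1.05 (Grn) to 2.64 (Gaa), and it exceeded 2 for 4 genes, Gaa, Sort1, Laptm4b and Lipa. Summed over the 44 genes, the wild-type level was 10027 ± 391 CPM in brainstem (SD, n = 8), 9238 ± 417 in cortex (n = 7), 8591 ± 635 in striatum (n = 8) and 8003 ± 177 in cerebellum (n = 7). Each brainstem library (9476 to 10553 CPM) lay above each cerebellum library (7691 to 8197 CPM).

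**Figure D1:**
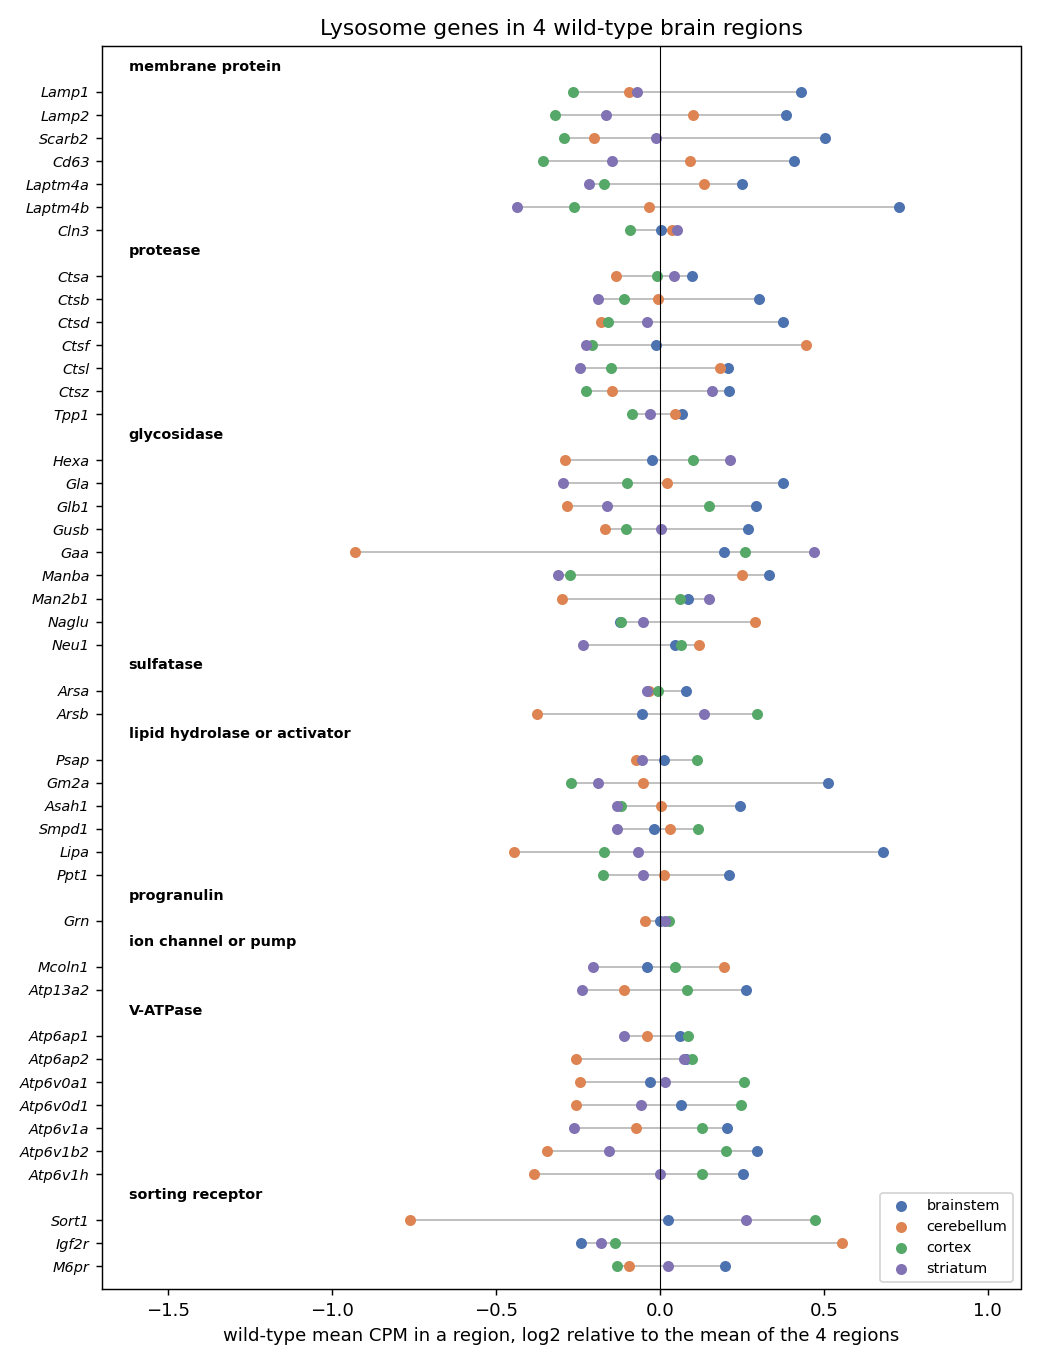
Mean CPM of each lysosome gene in wild-type brainstem, cerebellum, cortex and striatum (7 or 8 libraries each), as log2 relative to the mean of the 4 regions, grouped by function; each point is a regional mean and the grey line spans the range. Brainstem is the rightmost point for 6 of the 7 membrane proteins (all but Cln3), cortex lies right of 0 for all 7 V-ATPase genes, and Gaa and Sort1 have their low point in cerebellum.

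Each region was tested against the mean of the other 3 regions in the same fit. In brainstem 26 lysosome genes were higher (34.1% of all genes were) and 2 were lower (36.0%), with a median log2 difference of 0.27 over the 44 genes against -0.01 over all genes. In cerebellum 8 were higher (35.3% of all genes) and 20 lower (38.4%), in cortex 13 were higher (30.6%) and 20 lower (29.0%), and in striatum 6 were higher (27.8%) and 20 lower (27.2%). The 2 lower in brainstem were Naglu and Igf2r. Without the 2 thalamus-rich striatal libraries, 5 were higher and 26 lower in striatum, with a median log2 difference of -0.20 in place of -0.08, while 29 were higher and 1 lower in brainstem, 10 and 18 in cerebellum, and 13 and 16 in cortex. Of all 12372 genes, 3518 were then higher and 3692 lower in striatum, and 4355 and 4550 in brainstem. The counts over all genes were 4461 and 4756 in cerebellum and 3735 and 3519 in cortex. Cell type markers differed between the regions too: in brainstem all 12 mature oligodendrocyte markers and all 11 microglia markers were higher than in the other regions, and in cerebellum all of both lists were lower. The part of such cells in the regional levels was not tested.

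Of the 7 membrane proteins 6 were higher in brainstem and all 7 were lower in cortex (6 without the 2 striatal libraries). Laptm4b, a multispanning protein that recruits regulators to lysosomes, was 116 to 183 CPM in brainstem (median 165, n = 8), 85.4 to 105 in cerebellum (median 92.0, n = 7), 70.5 to 93.5 in cortex (median 74.9, n = 7) and 49.3 to 115 in striatum (median 63.8, n = 8). Its brainstem libraries lay above all others, and its highest striatal library was that of mouse 7267059. The log2 difference of brainstem from the other regions was 0.97 ± 0.10 (SE, FDR 9e-22).

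Of 7 proteases, 6 were higher in brainstem and 6 lower in cortex (4 without the 2 striatal libraries). The exception in brainstem was Ctsf (cathepsin F), whose highest level was in cerebellum, with 87.9 to 108 CPM (median 96.3, n = 7) against 62.3 to 78.5 in brainstem (median 70.0), 55.3 to 66.3 in cortex (median 63.7) and 52.5 to 73.5 in striatum (median 60.3). The cerebellum libraries did not overlap those of any other region, and the log2 difference of cerebellum from the others was 0.59 ± 0.05 (SE, FDR 2.2e-33).

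Glycosidases, the enzymes that trim sugars, were mixed, with 5 of 9 higher and 1 lower (Naglu, not called without the 2 striatal libraries) in brainstem, and 3 higher and 5 lower in cerebellum. Gaa, the acid alpha-glucosidase that breaks down glycogen, was 138 to 246 CPM in cerebellum (median 218, n = 7), and no library of the other regions was below 302 CPM. In striatum it ranged from 373 to 779 CPM (median 459, n = 8). Its cerebellum level was lower by a log2 difference of -1.24 ± 0.15 (SE, FDR 4.4e-13), the largest regional difference among the 44 genes. Gaa also had the widest spread within groups, with an SD of 0.365 on the log2 scale over all libraries. The median of that SD was 0.139 over the lysosome genes and 0.162 over all genes. The next widest were Manba, a beta-mannosidase (0.275), Laptm4b (0.248) and Lipa (0.239), and the narrowest were Asah1 (0.0850) and M6pr (0.0829).

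Both sulfatases of the list remove sulfate groups, Arsa from sulfatide, a myelin lipid, and Arsb from dermatan and chondroitin sulfate. Arsa had regional means of 40.7 to 44.2 CPM and no regional call. Without the 2 thalamus-rich striatal libraries it was called higher in brainstem (log2 difference 0.16 ± 0.04, SE, edgeR FDR 0.00045) and lower in striatum (-0.20 ± 0.05, FDR 8.9e-05). Arsb was lowest in cerebellum, with 65.3 to 78.7 CPM (median 75.3, n = 7), and highest in cortex, with 104 to 148 CPM (median 111, n = 7). The cerebellum libraries lay below those of every other region, at a log2 difference of -0.50 ± 0.06 (SE, FDR 1.3e-17).

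Among 6 lipid hydrolases and activators, 4 were higher in brainstem. Lipa, the acid lipase that frees cholesterol from its esters, was 34.0 to 42.9 CPM in brainstem (median 39.3, n = 8), 14.2 to 21.3 in cerebellum (median 18.0, n = 7), 16.8 to 27.1 in cortex (median 21.6, n = 7) and 17.9 to 36.8 in striatum (median 21.5, n = 8). Brainstem was above the others by 0.91 ± 0.10 on the log2 scale (SE, FDR 4.2e-20), and mouse 7267059 was the single striatal library within the brainstem range. Without the 2 thalamus-rich libraries Lipa was called lower in striatum (-0.28 ± 0.10, SE, edgeR FDR 0.0079). Psap, the precursor of the saposins that help to degrade sphingolipids, took 17.3% to 20.5% of the summed CPM of the lysosome genes in the 4 regions. Per kilobase of merged exon it was also the most abundant, at 628 CPM per kb (mean of the regions), 161 times the level of Naglu, the lowest at 3.89 CPM per kb. V-ATPase subunits followed in that order: Atp6v1b2 was at 230 CPM per kb, and all 7 were above the 44-gene median of 33.3 CPM per kb, between ranks 2 and 13.

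V-ATPase subunits and accessory proteins were high in cortex, where 6 of 7 were above the other regions (7 without the 2 striatal libraries) and none below, and low in cerebellum, where 5 were below and none above. Atp6v1b2, a subunit of the catalytic domain, was 711 to 856 CPM in brainstem (median 790, n = 8), 666 to 863 in cortex (median 721, n = 7), 494 to 616 in striatum (median 590, n = 8) and 459 to 539 in cerebellum (median 510, n = 7). Brainstem and cortex overlapped, as did striatum and cerebellum, and neither of the former overlapped either of the latter. Progranulin, a secreted protein cut into granulins in the lysosome, varied least: the Grn means were 51.0 to 53.6 CPM, and no region differed from the others. The 2 channel or pump genes differed: Atp13a2, a polyamine transporter, was higher in brainstem by 0.35 ± 0.06 on the log2 scale (SE, FDR 5.7e-08), while Mcoln1 was called higher in cerebellum.

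The 3 sorting receptors went 3 ways. Sort1, sortilin, which binds progranulin and several hydrolases, was 210 to 257 CPM in cerebellum (median 243, n = 7) and 410 to 711 CPM in cortex (median 567, n = 7), and the log2 difference of cerebellum from the others was -1.01 ± 0.10 (SE, FDR 1.4e-22). Igf2r was highest in cerebellum at 87.0 to 124 CPM (median 103, n = 7), with no library of another region above 72.2 CPM. M6pr, the small mannose 6-phosphate receptor, was called higher in brainstem.

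SCA3 was then compared with wild-type in each region, the question of the study's design. Few lysosome genes were called. Arsb was higher in SCA3 brainstem and striatum, Cd63 and Lipa were lower in SCA3 striatum, and no lysosome gene was called in cerebellum or cortex. Over the 44 genes the median log2 fold change was 0.01 in brainstem, -0.00 in cerebellum, -0.02 in cortex and -0.11 in striatum, against 0.00 or -0.00 over all genes in each region.

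**Figure D2:**
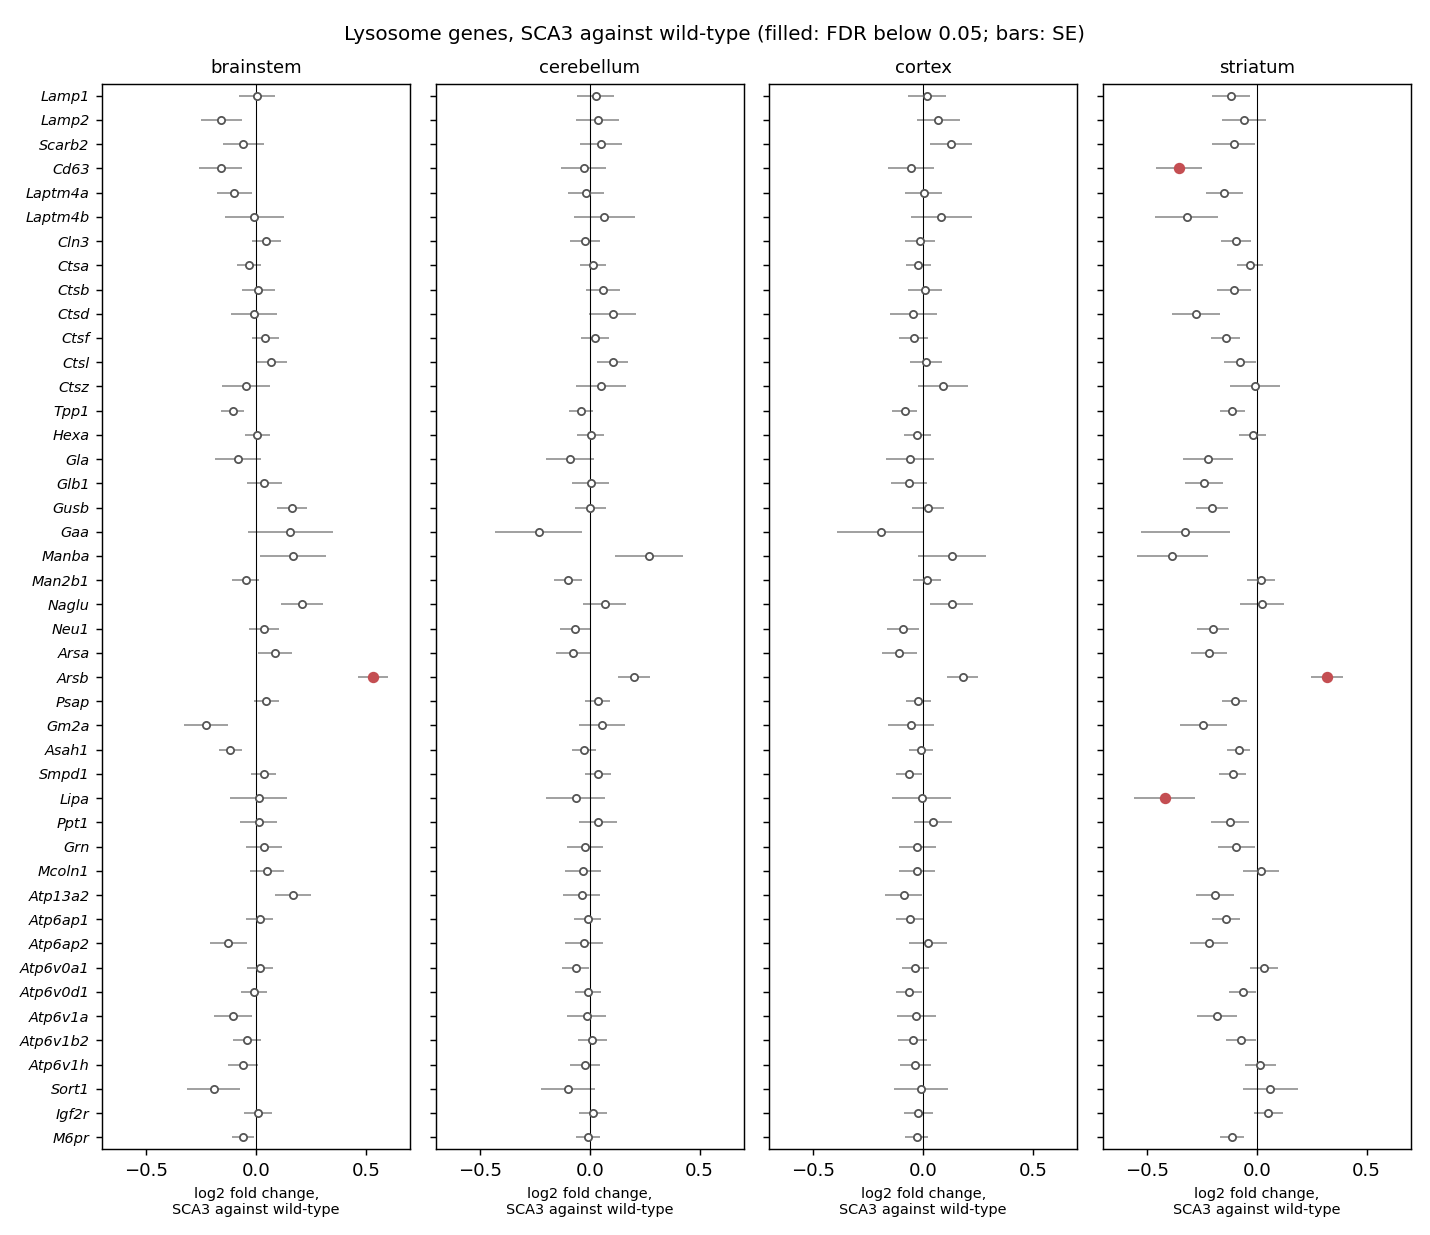
Log2 fold change of the 44 lysosome genes, SCA3 against wild-type, in the 4 regions; bars are standard errors, and filled red points have an FDR below 0.05. Arsb stands to the right in brainstem (0.53) and striatum (0.32), Cd63 (-0.36) and Lipa (-0.42) are the filled points to the left in striatum, and 36 of 44 striatal points lie below 0.

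In brainstem 1 of the 44 genes was called, against 1.92% of all genes, and it was higher in SCA3 (0.776% of all genes were called higher). This was Arsb (chromosome 13, 93771679 to 93943016, plus strand). Its 6 SCA3 libraries ranged from 113 to 164 CPM with a median of 123 CPM, and its 8 wild-type libraries from 83.1 to 96.3 CPM with a median of 93.3 CPM. The groups did not overlap, which was not counted over all genes in any region. SCA3 was 1.45-fold of wild-type (95% interval 1.32 to 1.59), a log2 fold change of 0.53 ± 0.07 (SE, FDR 1.2e-11). Mice 9083515 and 9083514 had the highest SCA3 values, 164 and 150 CPM, and the other 4 SCA3 mice lay between 113 and 125 CPM. Within the largest series of mouse numbers, which shares its leading digits, the log2 fold change was 0.66 (4 wild-type and 3 SCA3 mice, edgeR FDR 9.9e-10).

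Arsb in striatum was 124, 126, 128, 137 and 137 CPM in the 5 SCA3 libraries, and 97.3 to 113 CPM in the 8 wild-type libraries, with a median of 104 CPM. The groups again did not overlap. SCA3 was 1.25-fold of wild-type (95% interval 1.13 to 1.38), a log2 fold change of 0.32 ± 0.07 (SE, FDR 0.0013). The value was 0.32 (edgeR FDR 0.0073) without the wild-type libraries rich in thalamus markers, 0.32 with the thalamus score as a covariate and 0.34 with the mature oligodendrocyte score as a covariate. Within the largest mouse series, which had 4 wild-type and 2 SCA3 striatal libraries, it was 0.31 with an edgeR FDR of 0.20.

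In cerebellum Arsb ranged from 74.6 to 98.2 CPM in SCA3 (median 84.7, n = 6) and from 65.3 to 78.7 CPM in wild-type libraries (median 75.3, n = 7), a log2 difference of 0.20 ± 0.07 (SE, FDR 1.0). In cortex it ranged from 126 to 142 CPM in SCA3 (median 130, n = 6) and from 104 to 148 CPM in wild-type libraries (median 111, n = 7), a log2 difference of 0.18 ± 0.07 (SE, FDR 0.80). The 148 CPM belonged to mouse 7267058; the other 6 wild-type libraries ended at 119 CPM, below every SCA3 library. Without that mouse the cortical value was 0.24 with an FDR of 0.16, the highest value and lowest FDR from leaving out single mice. Those values ranged from 0.16 to 0.24, and Arsb in cortex was not called in any of 28 alternatives. The combined test of genotype over the 4 regions called Arsb alone of the 44 genes (FDR 2.5e-16), against 4.73% of all genes. The test of region dependence did not call it (FDR 0.14), so its fold changes were not shown to differ between regions, and it called no lysosome gene, against 0.218% of all genes. At an unadjusted p below 0.05 that test found 4 lysosome genes, which is 9.09% of them as of all genes, and DESeq2, limma-voom and the quasi-likelihood test called 0. The test of region dependence called 1, Arsb, when each mouse was a fixed replicate block, along with 0.291% of all genes. It also called Arsb alone of the 44 when wild-type mouse 9082857 was left out, along with 2.13% of all genes. Counting did not use strand, and GENCODE lists the opposite-strand transcripts Gm26527 and Gm47210 over 48.2% and 11.5% of the exon bases of Arsb, so reads from these and from Arsb cannot be told apart.

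**Figure D3:**
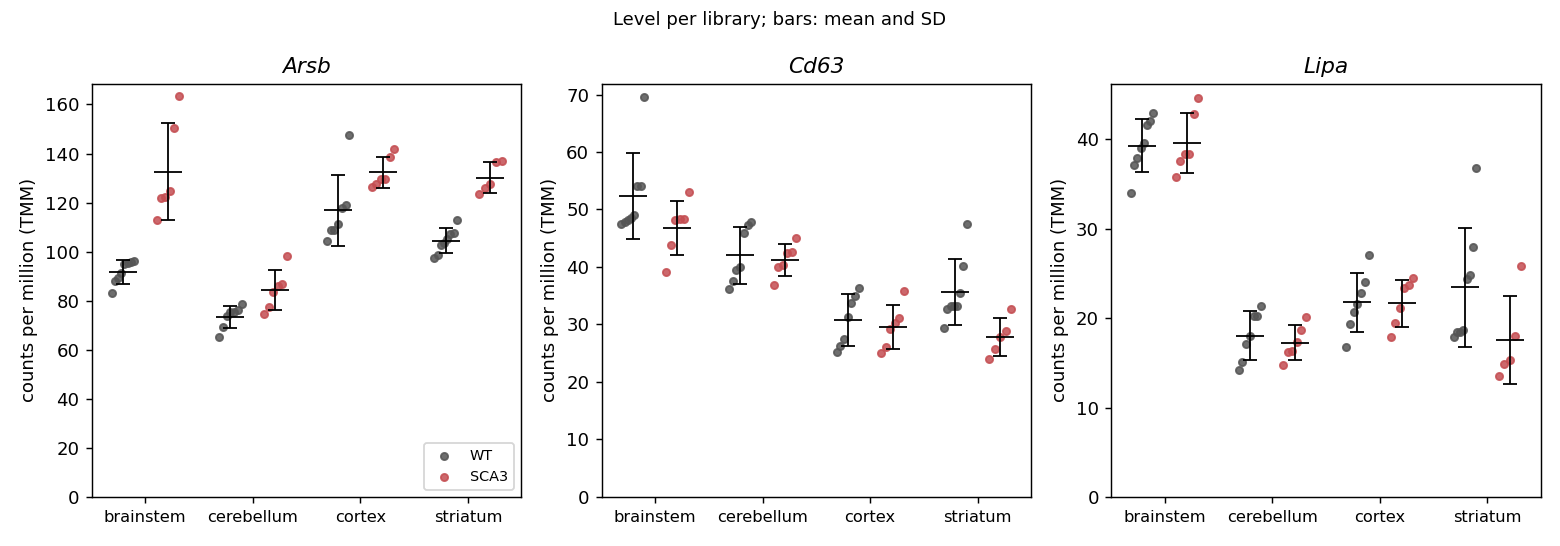
CPM of Arsb, Cd63 and Lipa in every library by region and genotype; points are libraries (grey wild-type, red SCA3), and bars give the mean and SD. Arsb separates the genotypes in brainstem and striatum, Cd63 and Lipa overlap between genotypes in every region, and single wild-type libraries stand high for Arsb in cortex, for Cd63 in brainstem and for Lipa in striatum.

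Other changes in brainstem did not pass the test. After Arsb the most positive fold change was that of Naglu, a glucosaminidase of heparan sulfate breakdown, and the most negative were those of Gm2a, the activator of ganglioside GM2 breakdown, and Sort1. Naglu was 8.84 to 11.5 CPM in SCA3 (median 10.9) and 7.63 to 11.1 CPM in wild-type libraries (median 8.84), a log2 difference of 0.21 ± 0.09 (SE, FDR 0.30). Gm2a was 63.8 to 91.7 CPM in SCA3 (median 72.6) and 64.6 to 107 CPM in wild-type libraries (median 90.9), with -0.23 ± 0.10 (FDR 0.28). Sort1 was 320 to 411 CPM in SCA3 (median 355) and 333 to 466 CPM in wild-type libraries (median 432), with -0.19 ± 0.12 (FDR 0.49). These 3 genes overlapped between genotypes. Atp6ap2, the prorenin receptor and an accessory protein of the proton pump, did not overlap: SCA3 libraries ended at 242 CPM and wild-type libraries began at 243 CPM (log2 fold change -0.13 ± 0.08, FDR 0.52). It was picked out after its values were seen, and how many of all genes did not overlap was not counted.

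Mature oligodendrocyte markers moved with genotype in brainstem. All 12 had a negative fold change (median -0.54), 4 of them were called, and their sum ranged from 9788 to 16463 CPM in SCA3 and from 10786 to 22362 CPM in wild-type libraries. Of 10 astrocyte markers 4 were called lower, and of 11 microglia markers 1. RNA integrity (RIN) also differed, at 7.24 ± 0.42 (SD, n = 8) in wild-type and 7.78 ± 0.26 (n = 6) in SCA3 brainstem. In the other regions the group means of RIN were 7.84 and 7.78 (cerebellum), 7.83 and 7.95 (cortex) and 7.48 and 7.40 (striatum). Striatal RIN spread widely, from 6 to 9 in wild-type (SD 0.98, n = 8) and from 5.7 to 8.3 in SCA3 (SD 1.02, n = 5). The thalamus-rich striatal library of mouse 7267058 had a RIN of 6.2. With RIN as a covariate Arsb in brainstem was at 0.52 (edgeR FDR 5.7e-10), and Gm2a at -0.15 (FDR 0.68). In a fit of the brainstem libraries alone Arsb was the single call among the lysosome genes. When that fit had the oligodendrocyte score as a covariate it called 8: Arsb, Ctsd, Ctsl, Gusb, Lamp1, Laptm4b, Manba and Scarb2. The share of all genes called rose from 3.17% to 11.5% between these fits. There Gm2a was at 0.11 and Sort1 at 0.02, on the positive side, and Arsb at 0.45 (edgeR FDR 0.00032). With the microglia score it called Arsb and Gusb, and 5.57% of all genes. What these scores stand for in the tissue was not tested.

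In striatum 3 of the 44 genes were called, against 7.54% of all genes: 1 was higher (2.07% of all genes) and 2 were lower (5.47%). Of the 44, 36 had a negative fold change, against 51.0% of all genes, and 18 (40.9%) had an unadjusted p below 0.05, against 23.2% of all genes. Of these 18, 17 were lower. The summed level of the lysosome genes was 7664 to 8352 CPM in SCA3 (median 7910, n = 5) and 7830 to 9825 CPM in wild-type libraries (median 8611, n = 8), the 9825 CPM being that of mouse 7267059. By function, all 7 membrane proteins, all 7 proteases and all 6 lipid hydrolases or activators had negative values, with 1, 0 and 1 called. Of the 9 glycosidases 7 were negative and of the 7 V-ATPase genes 5, none called. Without the 2 wild-type libraries rich in thalamus markers, 31 of 44 were negative, the median was -0.06 in place of -0.11, and 1 gene, Arsb, was called, against 2.34% of all genes. An unadjusted p below 0.05 was then found for 6 of the 44 (13.6%, against 14.5% of all genes). The membrane proteins and proteases then had 4 negative values of 7 each, and the lipid genes still 6 of 6. In the fit of striatum alone with the thalamus score as covariate, 28 of 44 were negative and the median was -0.02, and with the oligodendrocyte score 29 were negative and the median was -0.04.

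Cd63 (chromosome 10, 128896231 to 128912822, plus strand) encodes a tetraspanin of late endosomes, lysosomes and exosomes. Its striatal levels were 24.0, 25.8, 27.8, 28.9 and 32.7 CPM in SCA3, and 29.5 to 47.5 CPM in wild-type libraries with a median of 33.2 CPM. The highest 2 wild-type values, 47.5 and 40.2 CPM, were those of mice 7267059 and 7267058, and the SCA3 mouse at 32.7 CPM, 9082853, fell within the wild-type range. SCA3 was 0.782-fold of wild-type (95% interval 0.678 to 0.902), a log2 fold change of -0.36 ± 0.11 (SE, FDR 0.019). Without mouse 7267059 it was -0.29 (FDR 0.057), without mouse 7267058 -0.33 (FDR 0.052) and without both libraries -0.24 (FDR 0.22). The call was also lost without SCA3 mouse 7267054 (edgeR FDR 0.066), 7267056 (FDR 0.10), 9083514 (FDR 0.065) or 9083515 (FDR 0.051), and in 13 of 29 alternatives in all. Cd63 was -0.16 ± 0.10 in brainstem, -0.03 ± 0.10 in cerebellum and -0.06 ± 0.10 in cortex, with FDR values of 0.49 or above.

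Lipa (chromosome 19, 34492316 to 34527474, minus strand) was at 13.5, 14.8, 15.3, 18.0 and 25.8 CPM in SCA3 striatum, and at 17.9 to 36.8 CPM in wild-type libraries with a median of 21.5 CPM. The groups overlapped. Mouse 9082853 at 25.8 CPM stood above the other SCA3 mice and had the highest sum of thalamus markers among them, 730 CPM. SCA3 was 0.748-fold of wild-type (95% interval 0.620 to 0.902), a log2 fold change of -0.42 ± 0.14 (SE, FDR 0.041). Without mouse 7267059 it was -0.30 (FDR 0.18), without mouse 7267058 -0.38 (FDR 0.11), without both libraries -0.22 (FDR 0.41), and with the thalamus score as a covariate -0.10 (edgeR FDR 0.91). Neither the quasi-likelihood test (FDR 0.052) nor limma-voom without a block (FDR 0.057) called Lipa, and it was not called in 17 of 29 alternatives in all. The call was also lost without wild-type mouse 7267055 (edgeR FDR 0.060) or 9083373 (FDR 0.079), and without SCA3 mouse 7267054 (FDR 0.20), 7267056 (FDR 0.18), 9083514 (FDR 0.059) or 9083515 (FDR 0.18). In the other regions Lipa lay between -0.06 and 0.01, with FDR values of 0.98 or above.

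**Figure D4:**
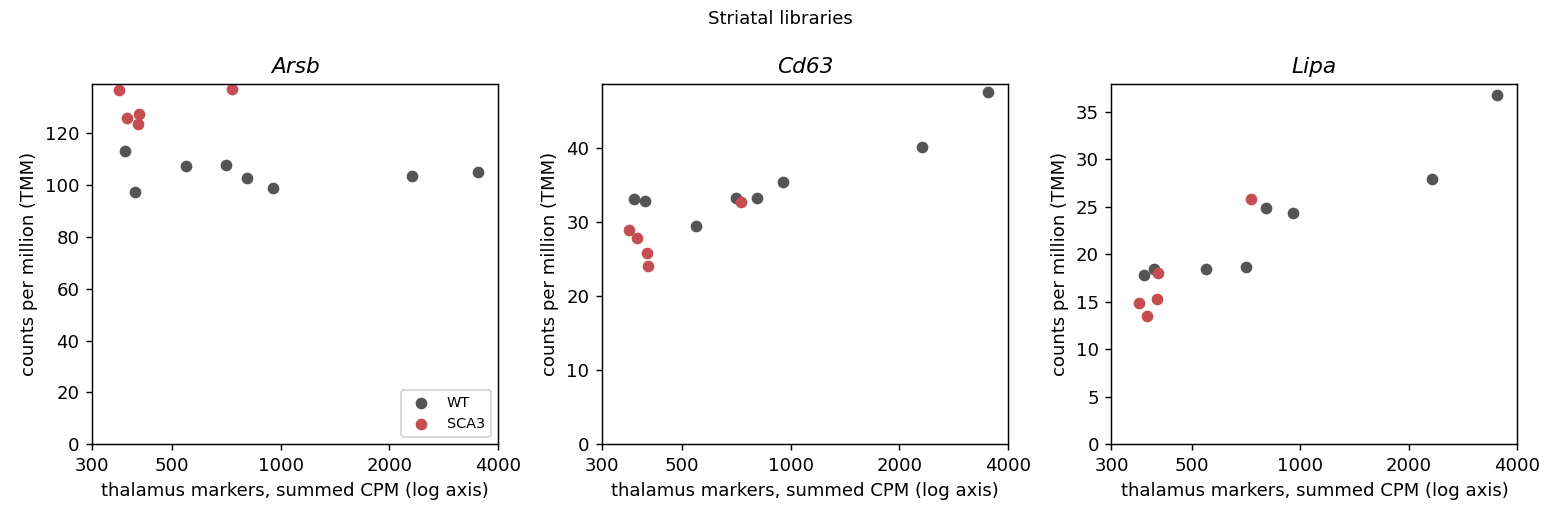
CPM of Arsb, Cd63 and Lipa in the 13 striatal libraries (grey wild-type, red SCA3) against the summed CPM of thalamus markers, on a log axis. The 2 wild-type libraries at 2315 and 3515 CPM of thalamus markers have the highest Cd63 and Lipa values, while Arsb lies between 97.3 and 113 CPM in all wild-type libraries and from 124 CPM up in SCA3.

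The other striatal extremes did not pass the test. Manba was 8.34 to 13.8 CPM in SCA3 (median 9.28, n = 5) and 8.50 to 23.9 CPM in wild-type libraries (median 11.5, n = 8), a log2 difference of -0.38 ± 0.16 (SE, FDR 0.12), and it was -0.08 without the 2 thalamus-rich libraries and 0.06 with the thalamus score as a covariate. Sort1 was 473 to 529 CPM in SCA3 and 349 to 586 CPM in wild-type libraries, with 0.06 ± 0.13 (FDR 0.80), and 0.09 without the 2 libraries. Thalamus markers were lower in SCA3 striatum for all 11 measured, 8 of them called, with a median log2 fold change of -1.56. Without the 2 thalamus-rich wild-type libraries 6 of the 11 were negative, 3 were called and the median was -0.06. Mature oligodendrocyte markers were lower for all 12, 6 of them called, with a median of -0.58, and their sum was 6368 to 9717 CPM in SCA3 and 6919 to 20142 CPM in wild-type libraries. Without the 2 libraries 8 of the 12 were negative, 0 were called by edgeR (6 had an unadjusted p below 0.05) and the median was -0.31. Of 10 astrocyte markers 5 were called lower (0 without the 2 libraries, with 6 at an unadjusted p below 0.05, 8 negative and a median of -0.22), of 11 microglia markers 0, and of 10 striatal projection neuron markers 0, all of the latter having positive values. With the oligodendrocyte score as a covariate Cd63 was at -0.16 and Lipa at -0.15, neither called, and Arsb and Gaa were. That fit called 3.23% of all genes, against 0.711% without the score.

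Leaving out single mice moved the striatal count between 1 and 9. It was 9 without wild-type mouse 9082857 or 9083371, 7 without SCA3 mouse 9082853, and 1, always Arsb, without wild-type mouse 7267058 or 7267059 or SCA3 mouse 7267054, 7267056 or 9083515. The share of all genes called moved too: it was 14.8% without mouse 9082857, 13.3% without 9083371 and 10% without 9082853, against 7.54% with every mouse. That share fell to 4.51% without 7267058, 3.86% without 7267059, 3.23% without 7267054, 2.43% without 7267056 and 2.4% without 9083515. Within the largest mouse series no lysosome gene was called, and 0.242% of all genes were.

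In cerebellum and cortex the genotypes were close. No lysosome gene was called, against 0.0647% of all genes in cerebellum and 0.154% in cortex. At an unadjusted p below 0.05 there was 1 in each region, Arsb (2.27%), against 1.66% of all genes in cerebellum and 4.07% in cortex. DESeq2, limma-voom and the quasi-likelihood test also called 0, and between 0.0404% and 0.162% of all genes. The 95% interval of the log2 fold change lay within 0.5 of 0 for 42 genes in cerebellum and 43 in cortex. The most negative values in cerebellum were those of Gaa, at -0.23 ± 0.20 (SE), and Sort1, at -0.10 ± 0.12, and the most positive were those of Manba, at 0.27 ± 0.15, and Arsb. Gaa there was 114 to 250 CPM in SCA3 (median 169, n = 6) and 138 to 246 CPM in wild-type libraries (median 218, n = 7). In cortex the extremes were Gaa, at -0.19 ± 0.20, Arsa, at -0.11 ± 0.08, Manba, at 0.13 ± 0.16, and Arsb. Arsa there was 35.3 to 42.3 CPM in SCA3 (median 38.8, n = 6) and 37.5 to 47.0 CPM in wild-type libraries (median 42.1, n = 7), so that the groups overlapped.

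By promoter motif, the 8 genes with a CLEAR core had median log2 fold changes of -0.01 in brainstem, -0.01 in cerebellum, -0.03 in cortex and -0.08 in striatum, with none called. The 29 with a promoter and no core had medians of 0.02, 0.01, -0.02 and -0.12, and all 3 called genes were among them. Of all genes 1.92% were called in brainstem and 7.54% in striatum, and no test compared the 8 with the 29. Without the 2 thalamus-rich libraries Arsb alone of the 3 was called in striatum.

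A further 87 lysosome genes of the table, from a list of other hydrolases, membrane proteins, V-ATPase subunits and regulators, showed what the rest of the pathway did. None was called by edgeR in brainstem, cerebellum or cortex, where 10, 1 and 3 had an unadjusted p below 0.05 (11.5%, 1.15% and 3.45%, against 13.3%, 1.66% and 4.07% of all genes). In striatum 7 were called (8.05%, near the 7.54% of all genes), 2 higher and 5 lower, and 47 of the 87 had a negative value with a median of -0.02. The lower ones were Ctsc, a protease that activates serine proteases of immune cells (-0.56 ± 0.16, SE), Galns, a sulfatase (-0.47 ± 0.13), Dnase2a, the lysosomal DNase (-0.32 ± 0.10), Scpep1, a carboxypeptidase (-0.23 ± 0.08), and Lamtor2, a scaffold of mTORC1 signalling on lysosomes (-0.20 ± 0.06). The higher ones were Mitf, a transcription factor related to TFEB (0.43 ± 0.13), and Rragd, a GTPase that recruits mTORC1 (0.34 ± 0.11). The FDR of these 7 was between 0.012 and 0.036. Without the 2 thalamus-rich libraries 2 of the 87 were called, Mitf (0.54, FDR 0.0057) and Galns (-0.46, FDR 0.049), against 2.34% of all genes. Of the 87, 43 were then negative, with a median of 0.01. With every library, 22 of the 31 other hydrolases were negative in striatum with a median of -0.10, and 21 with a median of -0.03 without the 2. Of the 10 other V-ATPase subunits 6 were negative either way, with medians of -0.02 and -0.04, and none was called. The combined test also called 7 of the 87 (8.05%, against 4.73% of all genes): Galns, Ctsc, Mitf, Tmem63a, Lamtor3, Fnip1 and Sumf1. Without the 2 libraries it called 4 (4.60%, against 3.57%): Mitf, Sumf1, Abca2 and Npc1.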

How the data were processed

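The authors made poly-A libraries without strand information and trimmed reads with cutadapt 1.10. They kept unique STAR 2.3.0e alignments to GRCm38 (mm10), counted them per gene with HTSeq 0.6.1 without strand, and kept genes averaging above 4 CPM (the lowest mean in the table was 4.07). The deposited values are these raw counts per gene, which the authors did not normalise. Groups came from the sample labels. Everything that follows was computed from the counts.

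Genotype and region were tested with edgeR 4.0.16 in R 4.3.3 (TMM scaling, 8 groups of region and genotype in one fit of 53 libraries, likelihood ratio test, FDR 0.05), which is the test the study used. CPM levels used TMM-scaled totals. SE is the standard error of the log2 fold change, and intervals are 1.96 SE to each side. The script was tested on simulated counts with changes set in SCA3 striatum. It recovered 36.8% of changes of 0.3 on the log2 scale, 86.4% of 0.5 and 93.9% of 1. Alternatives were the quasi-likelihood test, DESeq2 1.42.0, limma-voom 3.58.1 with and without the mouse as block, RLE size factors, at least 10 counts in every library (12337 genes), RIN (RNA integrity) as covariate, RIN of at least 7 (49 libraries), the series of mouse numbers, each region alone with and without marker scores, and leaving out each of 14 mice. Omission of the 2 thalamus-rich striatal libraries was chosen after seeing the data.

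Libraries of the same mouse come from 1 animal. Their deviations from the group means correlated with a mean r of 0.0904 to 0.186 over 6 pairs of regions, and limma estimated 0.14 for the block. A mouse has a single genotype, so the block pairs regions and not genotypes.

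The members and gene lists were chosen with earlier results of these data known. Genes described with full values were those called in any genotype test, the 2 most positive and 2 most negative fold changes in each region, and the gene with the widest regional range in each functional group. Igf2r, M6pr, Mcoln1, Psap and Atp6ap2 were named in addition. Lengths per kb are merged exons of GENCODE M21. Promoter windows of 300 bases were searched on both strands for TCACGTGA and CACGTG. Python 3.11.15 was used for motifs and figures.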

Additional observations from a re-analysis of the deposited data

Results flagged for a closer look

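Single libraries stood far from the rest of their group by Dixon's test for 6 of 120 groups of samples, over 15 quantities. Chance flags about 1 in 20 groups, which is 6 of 120. Mouse 7267059, a wild-type mouse, accounts for 3 of them: its Cd63 level in brainstem was 69.6 CPM against 47.5 to 54.2 CPM in the other wild-type libraries, its Grn level in striatum was 69.6 CPM against 47.7 to 55.5 CPM, and its Atp13a2 level in brainstem was the lowest, 150.3 CPM against 197 to 222 CPM. Wild-type mouse 7267058 had 148 CPM of Arsb in cortex against 104 to 119 CPM. SCA3 mouse 9082853 had 13.8 CPM of Manba in striatum against 8.34 to 9.67 CPM. Wild-type mouse 7267055 had 139 CPM of Atp13a2 in cortex against 172 to 195 CPM.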

How the results depend on the processing

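The call of Arsb in brainstem held in all 28 alternatives, with log2 fold changes of 0.45 to 0.66, and in striatum in 28 of 29, with 0.30 to 0.34. Cerebellum and cortex had 0 lysosome genes called in each of 28 alternatives. Regional counts in wild-type mice stayed within 1.5-fold in 25 alternatives each.

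In brainstem, where 1 gene was called, the count was 8 with the mature oligodendrocyte score (11.5% of all genes called) and 2 with the microglia score (5.57%). In striatum, where 3 were called beside 7.54% of all genes, it was 5 with DESeq2 (9.39%) and with the mouse series as covariate (9.25%). It was 1 with a RIN of at least 7 (1.12%), with the region alone (0.711%), with the thalamus score (0.622%) or microglia score (1.62%) and without the 2 thalamus-rich libraries (2.34%), and 0 in the largest mouse series (0.242%). Leaving out single mice gave 1 to 9 in striatum, 1 to 4 in the combined test and 0 to 1 for region dependence. The combined test (1 called, 4.73% of all genes) called 2 with RIN as covariate (4.46%), 3 without mouse 9082853 (6.64%), 4 without 9082857 (8.48%) and 2 without 9083375 (5.39%). With the mouse as a fixed replicate block, region dependence was called for 1 gene, Arsb (0.291% of all genes). The limma-voom fit with the mouse as block called 3 genes in striatum, and the block changed no other count by over 1.5 times. The cause of these differences was not tested.

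Signs turned for some values near 0 and for 3 larger ones, Gm2a and Sort1 in brainstem and Manba in striatum. Cd63 in cerebellum was 0.0078 in the largest series and -0.061 to 0.0087 without single mice. Lipa in brainstem was -0.031 to 0.039 and in cortex -0.061 to 0.058 without single mice. Lipa in cerebellum was 0.032 with the thalamus score and 0.070 with the oligodendrocyte score. In cortex it was 0.014 with voom, 0.0056 with the replicate block, 0.00099 with RIN and 0.050 in the largest series. With the oligodendrocyte score Gm2a in brainstem went from -0.23 to 0.11 and Sort1 from -0.19 to 0.020, and with the thalamus score Manba in striatum went from -0.38 to 0.057. Manba in striatum was called without SCA3 mouse 9082853 (-0.53, edgeR FDR 0.032) and without wild-type mouse 9082857 (-0.45, FDR 0.043).

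With 5 to 8 libraries a group, intervals within 0.5 of 0 on the log2 scale were reached for 39 to 43 of the 44 genes, so smaller changes are not excluded. Counts were at least 251 a library, and the parts of counting error and of spread between mice in the precision were not tested.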

Other observations

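Genes next to Arsb on chromosome 13 were looked up after its values were seen. Within 1 Mb, 8 other genes of the table were tested, and none was called in brainstem, where Arsb had its largest fold change. In striatum, where 7.54% of all genes were called and 2.07% were called higher, 2 of the 8 were called higher in SCA3: Ap3b1, a subunit of the AP-3 adaptor that sorts proteins to lysosomes (log2 fold change 0.22, edgeR FDR 0.0024), and Scamp1, a membrane protein of the recycling pathway (0.18, edgeR FDR 0.047). The combined test called Ap3b1 alone of the 8 (FDR 0.013). Without the 2 thalamus-rich striatal libraries Ap3b1 was at 0.19 (edgeR FDR 0.035) and Scamp1 at 0.10 (FDR 0.37) in striatum, and the combined test did not call Ap3b1 (FDR 0.092).

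Apart from the 44 genes, 31 other lysosomal hydrolases were measured. Of these, 23 were higher in wild-type brainstem than in the other regions (34.1% of all genes were) and 1 was lower (36.0%). In cerebellum 7 were higher and 18 lower (35.3% and 38.4% of all genes), in cortex 5 and 14 (30.6% and 29.0%), and in striatum 6 and 12 (27.8% and 27.2%), or 5 and 16 without the 2 thalamus-rich libraries. In striatum 3518 of all 12372 genes were then higher and 3692 lower.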
